A study of Mus musculus with 196 samples.

Results

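The libraries compared here are germ cells made from mouse embryonic stem cells and cultured with either retinoic acid (RA) alone or the bone morphogenetic protein BMP2 alone. They were chosen by their titles as the libraries of clone H18 labelled RA or BMP2 at culture day 3.5 or day 4, which gave 4 RA and 4 BMP2 libraries, 8 of the 196 samples of the series. Each combination of treatment and day had replicates 1 and 2. A pair of untreated control libraries of the same clone at day 3.5 gave the baseline and brings the set to 10 libraries. The comparison asks which genes differ at the start of culture between cells given only RA and cells given only BMP2. The wider study followed the transcription factor ZGLP1 in the female germ cell fate, with Zglp1 knockout or overexpressing and Stra8 knockout lines, none of which is in this comparison.

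All 10 libraries share 1 clone, the strain mixture 129S1:C57BL/6=1:1 and the reporter genotype Prdm1-mVenusTg/0; Dppa3-ECFPTg/0. The cells are primordial germ cell-like cells (PGCLCs), the culture counterpart of the precursors of eggs and sperm. In every group the stem cells had first become epiblast-like cells with activin A and bFGF, and then PGCLCs with BMP4, SCF, LIF and EGF, so the RA cells had met a BMP ligand before the culture began. Cells positive for the Prdm1 reporter were sorted onto m220 feeder cells, which present membrane-bound SCF, and the cultured cells were sorted again by the Dppa3 reporter before RNA was taken. The doses of RA and BMP2 are not given in the sources used here. The labels do not say that replicates 1 and 2 came from separate cultures, so the p-values below measure the spread between libraries, which may be technical. The stage label reads day 3.5 for every H18 sample of this experiment, so the day was taken from the titles (c3.5 and c4).

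BMP ligands bind pairs of serine/threonine kinase receptors that phosphorylate the SMAD proteins SMAD1, SMAD5 and SMAD9, which enter the nucleus with SMAD4 and switch on targets such as the Id genes. RA is made from vitamin A, is carried in the cell by CRABP proteins and is broken down by CYP26 enzymes. It binds nuclear receptors, the RARs paired with RXRs, that already sit on DNA at repeated hexamer motifs and exchange corepressors for coactivators when RA arrives. In the fetal ovary both signals reach germ cells as they leave the primordial state and enter meiosis, and RA is best known there as the inducer of Stra8, which is needed for meiotic entry.

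Transcript levels are reads of each gene scaled by the library's total of gene-assigned reads (RPM) from 3' end libraries. The 10 libraries held 1592209 to 3229485 reads and detected 13728 to 14927 genes, and 1 read was worth 0.310 to 0.628 RPM. A count of 3 reads, taken as the floor of detection, stood for 0.929 to 1.88 RPM depending on the library. These limits cover counting error only, since the reads carry no stated molecular identifiers. RA replicate 2 at day 3.5 stood apart: its median correlation with the other 9 libraries was 0.862 across 6458 genes, against 0.927 to 0.95 for the others. In that library 94 genes lay at least 4-fold from the median of the other 5 libraries of day 3.5, 92 of them lower, against 14 to 27 genes in each of those 5. The direction went with the replicate number. In replicate 2 of the control 27 of 27 such genes were lower, and in replicate 2 of BMP2 13 of 14. In each replicate 1 library 0 were lower. Results that rest on RA replicate 2 of day 3.5 are given with and without it.

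Early germ cell transcripts were present in all 10 libraries. The listed genes include Prdm1 and Dppa3, whose reporters were used to sort the cells, so high levels of these were favoured in advance. No other cell type was compared. Of 14 early germ cell genes all 14 were tested, and their summed level was between 7131 and 7969 RPM in the 10 libraries. Dppa3, whose promoter drives the sorting reporter, lay between 1009 and 1523 RPM. None of the 14 was called between RA and BMP2, with changes from -0.34 to 0.35 on the log2 scale and a median of -0.05. Of 14 markers of gonadal somatic cells none reached 10 RPM in any of the 10 libraries. Feeder and stromal transcripts were present: their 20 markers summed to 392 to 795 RPM, mostly from Fn1, which encodes fibronectin. The lowest of these sums came from the RA libraries of day 3.5 (392 to 748 RPM), and the RA libraries of day 4 gave 698 to 726 RPM against 655 to 709 RPM with BMP2. The share of these transcripts in the differences below was not tested. In bulk libraries fewer cells with a transcript and less of it in each cell cannot be told apart.

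Over both days 3 genes were called between RA and BMP2. Testing was limited to genes at 10 RPM or more in at least 2 of the libraries compared. A call needed a limma p below 0.05 after Benjamini-Hochberg adjustment and a log2 change in RPM + 1 of at least 1 in size. Of 8872 genes tested, 3 (0.0338%) were called: Id1 and Zglp1 were lower with RA than with BMP2 (2 genes, 0.0225%) and Mdk was higher (1 gene, 0.0113%). Nr6a1 passed the adjusted p but not the minimum change. An unadjusted p under 0.05 was reached by 274 genes, fewer than the 444 that are 5% of the tests, and the median change of all tested genes was -0.03. The 4 libraries of one treatment all lay above the 4 of the other for 58 genes higher with RA (0.654% of those tested) and for 71 genes lower with RA (0.8%).

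**Figure D1:**
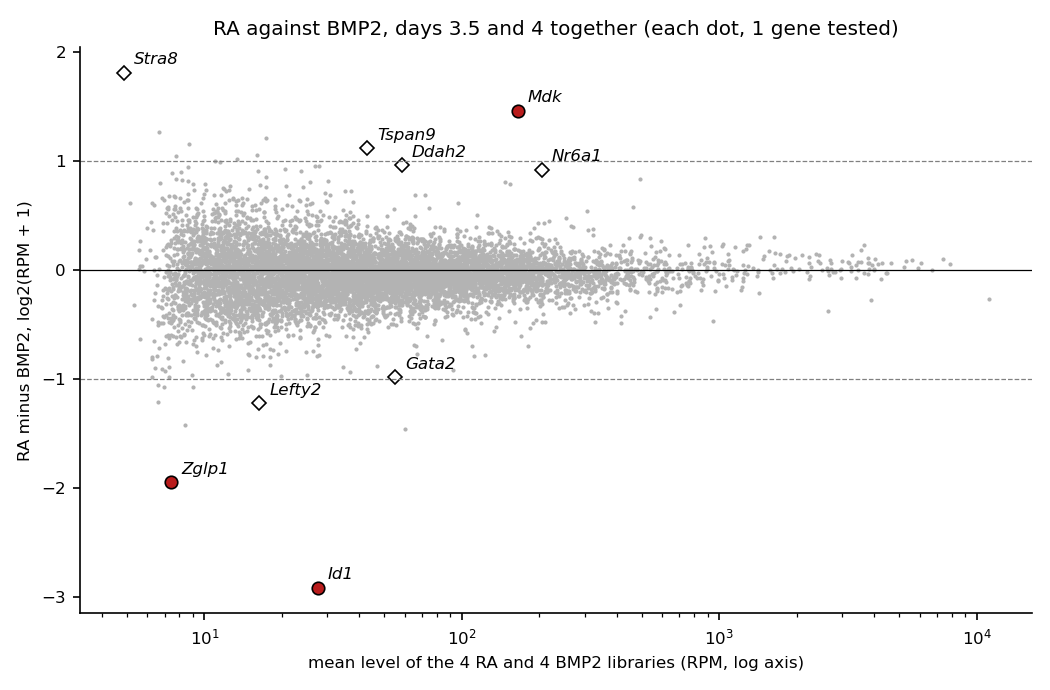
RA against BMP2 over days 3.5 and 4 for the 8872 tested genes. The horizontal log axis is the mean RPM of the 8 libraries, the vertical axis is the log2 change of RPM + 1 (RA minus BMP2), red points are the called genes and open diamonds are other genes named in the text; Id1 at -2.91 lies farthest below 0 among the called genes and Mdk at 1.46 is the called gene above it.

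Id1 was the clearest difference. It encodes a helix-loop-helix protein that holds its partners off DNA, and it is a direct target of BMP-activated SMADs. At day 3.5 its level was 48.4 and 52.3 RPM with BMP2, 9.69 and 6.46 RPM with RA, and 6.97 and 6.28 RPM in the controls. At day 4 it was 36 and 58.8 RPM with BMP2 and 2.17 and 6.22 RPM with RA. Every BMP2 library lay above every RA library, and the RA libraries of day 3.5 were near the controls. Over both days the mean was 48.9 ± 9.61 RPM with BMP2 and 6.13 ± 3.08 RPM with RA (SD, n = 4 each). The log2 change was -2.91 ± 0.40 (SE; 95% interval -3.71 to -2.11; limma adjusted p = 9.7e-07), which is 7.52-fold lower with RA. Without RA replicate 2 of day 3.5 the change was -2.78 (limma adjusted p = 0.00015). Id1 (Entrez 15901) lies at chr2:152736251-152737410 on the plus strand of mm10.

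The other BMP targets leaned the same way with far smaller changes. Of 16 listed BMP target genes 9 were tested and 1 (Id1) was called. All 9 had estimates below 0, from -2.91 to -0.27 with a median of -0.68, beside the median of -0.03 for all genes. Id1 is among these 9. It passed the filter on low levels through its BMP2 libraries alone, and for such genes an estimate below 0 is favoured in advance. Id2, a relative of Id1, was at 20.7 and 15.8 RPM with BMP2 and 12.8 and 9.48 RPM with RA at day 3.5, and at 12.5 and 16.2 RPM against 4.03 and 7.46 RPM at day 4. Its change of -0.95 ± 0.37 did not pass the adjusted test (limma adjusted p = 1), and 1 RA library lay above 1 BMP2 library. Bambi, a decoy receptor that dampens BMP signalling, was at 21.4, 26, 12.9 and 23.9 RPM with BMP2 and at 16.8, 15.1, 8.98 and 9.95 RPM with RA, each as day 3.5 and then day 4. Its change was -0.68 ± 0.33 (limma adjusted p = 1), and the groups overlapped.

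Gata2, a zinc finger transcription factor, was the other BMP target whose groups did not overlap. Its BMP2 libraries held 89.8, 68.7, 55.2 and 72.5 RPM and its RA libraries 54.6, 44.4, 17.6 and 35.6 RPM, while the controls were at 57.2 and 52.8 RPM. The change of -0.98 ± 0.37 was not called (limma adjusted p = 1). The groups of Id3, at 405, 470, 287 and 350 RPM with BMP2 and 310, 471, 205 and 213 RPM with RA, overlapped and differed by -0.39 ± 0.26. The homeobox gene Msx2 had a larger estimate with a larger error, -0.96 ± 0.53. The inhibitory SMADs had estimates of -0.59 ± 0.33 for Smad7 and -0.27 ± 0.33 for Smad6. None of these 4 genes passed the adjusted test.

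Zglp1 was the second gene lower with RA. It encodes a GATA-type zinc finger protein that the series names as a determinant of the oogenic fate. In the controls it was at 0 and 1.88 RPM, at or under the floor of 3 reads. With BMP2 it was at 5.34 and 6.58 RPM at day 3.5 and at 16.8 and 20 RPM at day 4. With RA it was at 1.53 and 1.29 RPM at day 3.5 and at 6.81 and 0.829 RPM at day 4. On each day both BMP2 libraries lay above both RA libraries, but RA replicate 1 of day 4 lay above the BMP2 libraries of day 3.5. The change over both days was -1.94 ± 0.36 (95% interval -2.65 to -1.24; limma adjusted p = 0.00089), or 3.84-fold on the log2(RPM + 1) scale. It was not called in the fits of only the compared libraries or only the H18 libraries. Without RA replicate 2 of day 4 the change was -1.42 and was not called (limma adjusted p = 0.49), nor was it with edgeR (-2.09, adjusted p = 0.42). Without RA replicate 2 of day 3.5 it was -1.91 (limma adjusted p = 0.017).

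The Zglp1 promoter window is shown because the gene was higher with BMP2. The window runs from 250 bases before to 50 bases after the start (RefSeq, GRCm38.p6, chr9:21067044-21067343, minus strand), and the capitals mark GGCGCC, a GC-rich motif that BMP-activated SMADs are known to bind.
Zglp1: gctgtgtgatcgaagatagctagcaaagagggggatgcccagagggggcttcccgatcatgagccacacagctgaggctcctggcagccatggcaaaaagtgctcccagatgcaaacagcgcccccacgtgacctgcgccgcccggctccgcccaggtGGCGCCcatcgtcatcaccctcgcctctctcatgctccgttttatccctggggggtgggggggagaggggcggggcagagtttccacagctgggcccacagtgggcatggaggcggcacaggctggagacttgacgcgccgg
GGCGCC reads the same on both strands and occurs once here, at bases 159 to 164. The window also holds a single RA receptor motif, AGGTCA on the opposite strand, at bases 130 to 135, not in capitals. Of 32851 promoter windows of this length, 11.9% hold the GC-rich motif that is in capitals here. The short SMAD motif, GTCT, stands on either strand of 88%, so a match is a description and not a site. The gene (Entrez 100009600) spans chr9:21062393-21067093 on the minus strand and overlaps Gm49373 on the same strand, so reads of that model could not be told apart from its own.

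Of the BMP pathway itself nothing upstream of the targets was called. Among ligands and antagonists 4 of 14 were tested with a median of 0.30, and among receptors and SMADs 7 of 11 with a median of -0.06. Bmp7, a ligand, was higher with RA in all libraries, at 70.4, 84, 72.5 and 80.8 RPM against 54.3, 60.2, 58.7 and 44.3 RPM with BMP2, but its change of 0.50 ± 0.26 was not called (limma adjusted p = 1). Bmpr1a, a type I receptor, was at 63.4, 99.3, 82.6 and 93.4 RPM with BMP2 and at 55.1, 65.1, 91.3 and 85.4 RPM with RA. Acvr1, another type I receptor, was at 13.8 and 14.1 RPM with BMP2 and 2.55 and 5.6 RPM with RA at day 3.5, and at day 4 RA gave 16.1 and 12.8 RPM and BMP2 replicate 1 gave 11 RPM, with BMP2 replicate 2 between the RA libraries. Its day 3.5 change was -1.63 ± 0.40 (limma adjusted p = 0.25), and at day 4 the groups overlapped. Smad1 (0.19 ± 0.35), Smad5 (-0.08 ± 0.20) and Smad4 (-0.02) had estimates near 0.

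Nodal, a TGF-beta relative with its own receptors and SMADs, was covered by 8 tested genes of 11, with no call and a median of 0.03. Lefty2, a Nodal antagonist and target, lay apart from the others at -1.22 ± 0.47 (limma adjusted p = 1). It was at 16.3, 27, 23.9 and 25.2 RPM with BMP2 and at 5.61, 11.2, 11.1 and 9.95 RPM with RA. The controls of day 3.5 were at 7.9 and 13.2 RPM. The BMP2 and RA libraries did not overlap, and both day 3.5 controls lay below the BMP2 libraries. At day 4 the 11 listed genes summed to 714 to 770 RPM in the controls. With BMP2 they summed to 355 to 414 RPM and with RA to 407 to 410 RPM. These sums were not tested, and the day 4 controls carry another extraction protocol text.

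**Figure D2:**
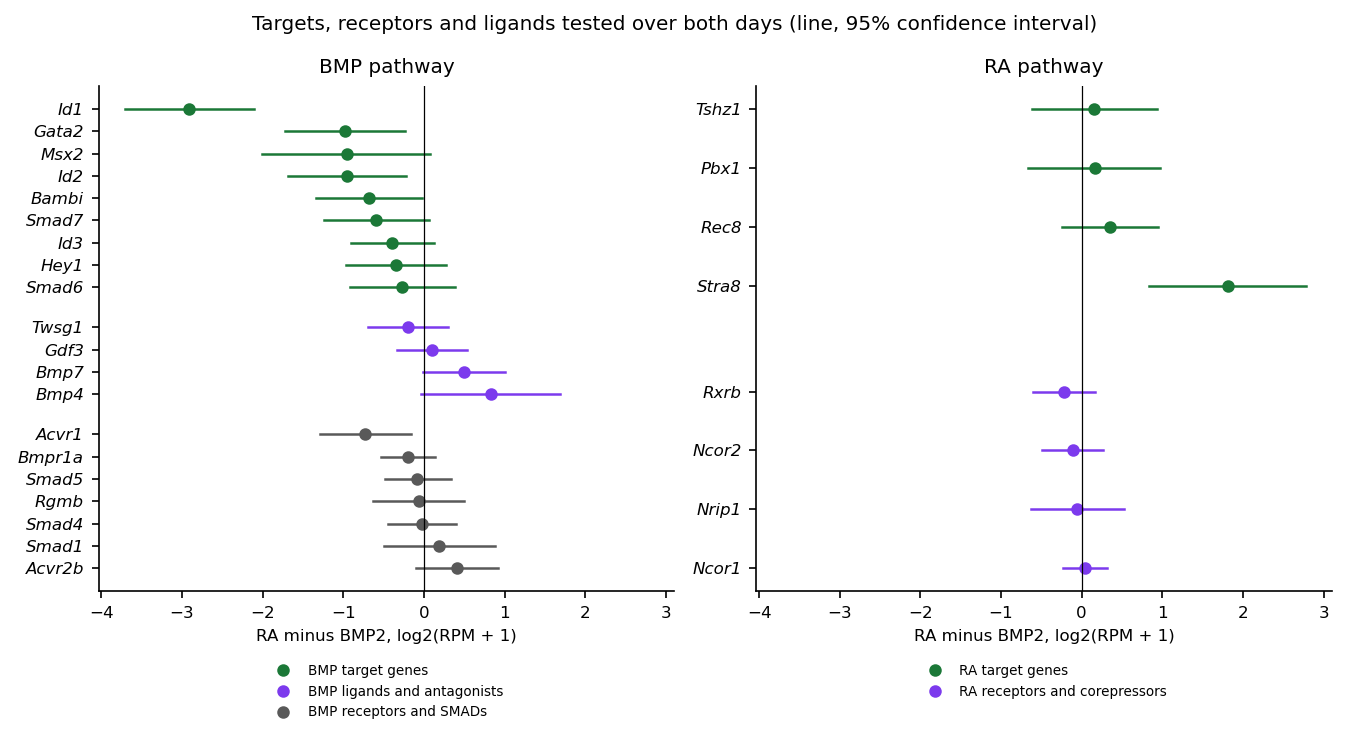
Change between RA and BMP2 over both days of the tested BMP targets, ligands, antagonists, receptors and SMADs and of the tested RA targets, receptors and corepressors. The horizontal axis is the log2 change of RPM + 1 (RA minus BMP2), with 4 libraries a side. Bars are 95% intervals from limma, with the spread estimated over all 191 PGCLC libraries and not from the compared libraries alone. The 9 BMP targets all lie below 0, with Id1 at -2.91, and the bars of most other genes cross 0.

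On the RA side the called gene was Mdk. It encodes midkine, a secreted heparin-binding growth factor that was first found as an RA-responsive gene. With RA it was at 180 and 302 RPM at day 3.5 and 232 and 254 RPM at day 4. With BMP2 it was at 75.4 and 113 RPM and then at 84.9 and 74.2 RPM, and the controls of day 3.5 were at 69.7 and 112 RPM. Every RA library lay above every BMP2 library and the day 3.5 controls, and BMP2 overlapped those controls. Against the day 4 controls, which carry another extraction protocol text, Mdk was 2.475 higher with RA (limma adjusted p = 5.6e-06). With BMP2 it was 0.87 higher than those controls (limma adjusted p = 0.27). Over both days the means were 242 ± 50.7 and 86.9 ± 18.1 RPM (SD, n = 4 each), and the change was 1.46 ± 0.27 (95% interval 0.93 to 2.00; limma adjusted p = 0.00089), or 2.76-fold. It kept a similar size but lost its call without RA replicate 2 of day 3.5 (1.28, limma adjusted p = 0.1) and without BMP2 replicate 1 of day 3.5 (1.32, limma adjusted p = 0.066). With edgeR it was 1.51 (adjusted p = 0.16). Mdk (Entrez 17242) lies at chr2:91929805-91932297 on the minus strand.

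Nr6a1, also called GCNF, was higher with RA by a smaller amount. It encodes an orphan nuclear receptor known as a repressor of Pou5f1 in differentiating stem cells. It was at 255 and 333 RPM with RA and 123 and 138 RPM with BMP2 at day 3.5, and at 228 and 256 RPM against 152 and 146 RPM at day 4. The controls of day 3.5 were at 140 and 166 RPM, below all 4 RA libraries. Against the day 4 controls Nr6a1 was 1.535 higher with RA (limma adjusted p = 3.8e-07) and 0.84 higher with BMP2 (limma adjusted p = 0.017). Over both days the change was 0.92 ± 0.15 (95% interval 0.62 to 1.23; limma adjusted p = 9.5e-05), short of the minimum of 1. At day 3.5 alone it was 1.15 ± 0.22 (95% interval 0.72 to 1.58; limma adjusted p = 0.0045), or 2.22-fold, and was called. The day 3.5 call was lost without RA replicate 2 (0.96, limma adjusted p = 0.91), without BMP2 replicate 1 (1.07, limma adjusted p = 0.85) and without BMP2 replicate 2 (1.23, limma adjusted p = 0.082), and with edgeR (1.18, adjusted p = 1). Nr6a1 (Entrez 14536) spans chr2:38723370-38927688 on the minus strand and overlaps an antisense gene, Nr6a1os, whose reads could be mixed with its own if counting ignored strand.

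Stra8 levels were apart at day 4, and whether the gene was called depended on the fit. At day 3.5 it was at 1.53 and 0.431 RPM with RA, 0 and 0.329 RPM with BMP2 and 0 and 1.88 RPM in the controls, all at or under the floor. At day 4 it was at 12.7 and 20.7 RPM with RA and at 2.74 and 0.426 RPM with BMP2. The day 4 libraries did not overlap, and the change there was 2.90 ± 0.69 (95% interval 1.53 to 4.27; limma adjusted p = 0.099), or 7.47-fold. Over both days it was 1.81 ± 0.49 (limma adjusted p = 0.34). At day 4 it was called in 2 of 13 alternatives. The block of replicate and day within each line, which was not planned, called it (limma adjusted p = 0.0013). The fit of only the compared libraries called it too (limma adjusted p = 0.0029). Over both days that block also called it (limma adjusted p = 0.0071). It stayed uncalled at day 4 with edgeR (3.34, adjusted p = 0.09) and with only H18 libraries (limma adjusted p = 0.098). Leaving out single day 4 libraries gave changes of 2.21 to 3.60. The difference between the days was 2.18 ± 0.98 (limma adjusted p = 1), so a change of the RA effect with day was not shown.

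**Figure D3:**
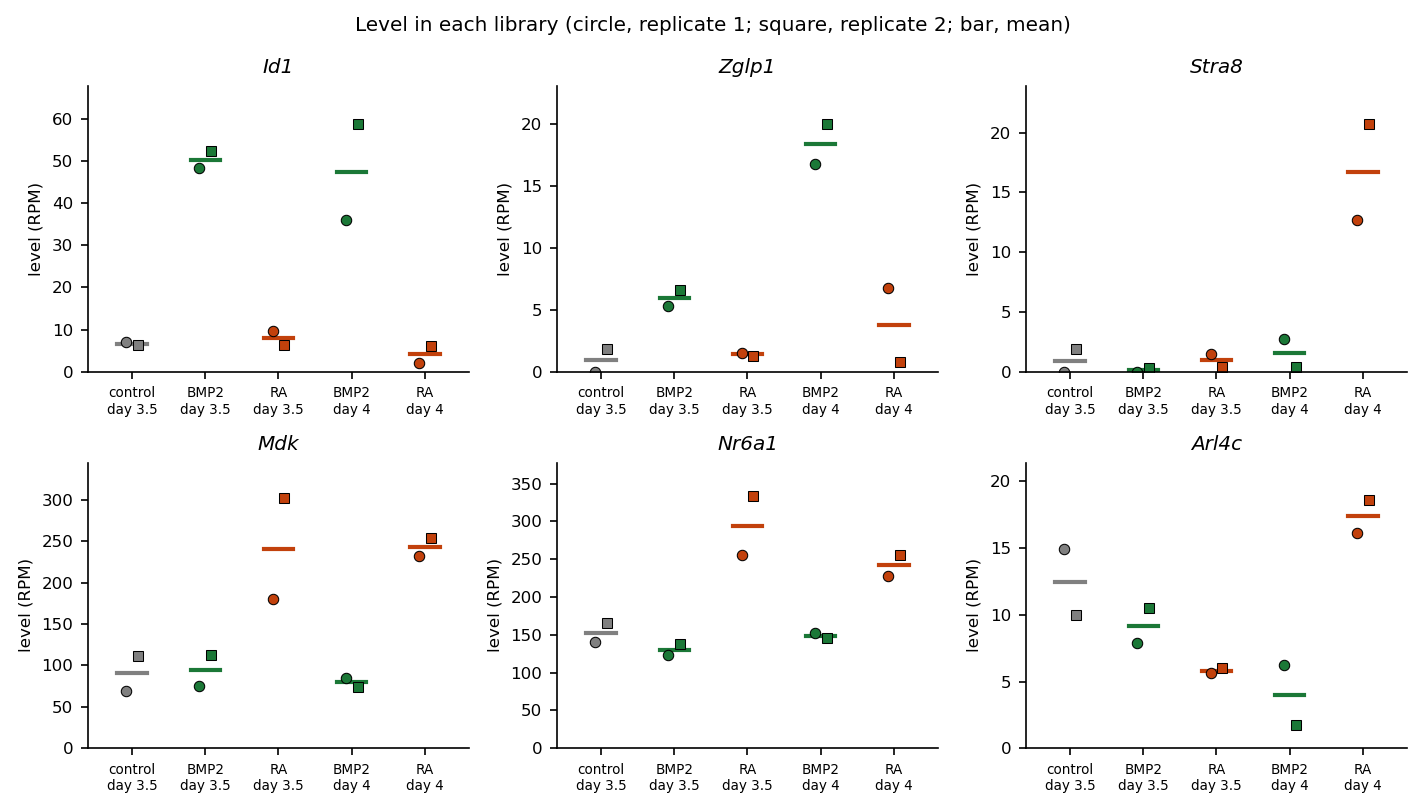
RPM of 6 genes in each library, with a panel for each gene and the groups control day 3.5, BMP2 and RA at day 3.5, and BMP2 and RA at day 4 along the horizontal axis. Circles are replicate 1, squares replicate 2 and bars the mean of 2 libraries; Id1 is at 36 RPM or more in every BMP2 library, Mdk at 180 RPM or more in every RA library, and Stra8 reaches 12.7 and 20.7 RPM only with RA at day 4.

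The genes that RA receptors are best known to drive directly were low in all libraries. Rarb, an RA receptor that is its own target, was at 5.61 and 11.2 RPM with RA and 0.628 and 1.32 RPM with BMP2 at day 3.5, and at 0.929 and 4.14 RPM against 1.17 and 0.853 RPM at day 4. Cyp26a1, the RA-degrading enzyme, was at 2.04, 8.19, 0.619 and 8.29 RPM with RA and 0.942, 2.3, 0 and 0 RPM with BMP2. For both genes the groups overlapped, and neither passed the filter on low levels; fitted without that filter they gave 1.43 (limma adjusted p = 0.61) and 1.51 (limma adjusted p = 0.46). Cdx1, a caudal homeobox target, was at 2.04, 3.02, 3.1 and 1.66 RPM with RA and at 0.942, 0.329, 0 and 0 RPM with BMP2, above BMP2 in every RA library but close to the floor throughout. Its change without the filter was 1.42 (limma adjusted p = 0.39).

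Promoter windows of Stra8, Rarb and Cyp26a1 are shown to set a strong RA response element beside the Stra8 start. All are RefSeq windows of GRCm38.p6, from 250 bases before to 50 bases after the start: Stra8 at chr6:34920698-34920997 (plus strand), Rarb at chr14:16575427-16575726 (minus strand) and Cyp26a1 at chr19:37697558-37697857 (plus strand). Capitals mark single receptor motifs (AGGTCA or AGTTCA, or either with G as its first base, on either strand) in Stra8, and the direct repeat of such motifs with 5 bases between them in the others.
Stra8: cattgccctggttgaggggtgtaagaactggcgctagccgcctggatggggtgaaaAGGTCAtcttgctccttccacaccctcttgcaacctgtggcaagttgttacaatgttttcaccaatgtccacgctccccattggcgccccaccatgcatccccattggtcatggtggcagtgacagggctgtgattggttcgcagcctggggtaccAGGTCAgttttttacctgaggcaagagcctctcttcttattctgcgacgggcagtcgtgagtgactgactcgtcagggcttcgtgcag
Rarb: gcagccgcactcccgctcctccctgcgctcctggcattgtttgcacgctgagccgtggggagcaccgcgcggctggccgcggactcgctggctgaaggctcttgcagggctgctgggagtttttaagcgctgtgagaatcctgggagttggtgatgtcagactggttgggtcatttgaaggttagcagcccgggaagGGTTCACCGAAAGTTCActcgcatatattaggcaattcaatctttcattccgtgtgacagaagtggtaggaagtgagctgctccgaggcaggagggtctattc
Cyp26a1: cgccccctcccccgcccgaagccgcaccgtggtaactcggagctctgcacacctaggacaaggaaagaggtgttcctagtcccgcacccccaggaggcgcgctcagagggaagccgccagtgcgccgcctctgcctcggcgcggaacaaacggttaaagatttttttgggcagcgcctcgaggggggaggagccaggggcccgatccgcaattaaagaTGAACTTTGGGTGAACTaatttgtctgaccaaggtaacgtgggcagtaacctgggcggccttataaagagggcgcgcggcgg
The Rarb repeat, at bases 198 to 214, reads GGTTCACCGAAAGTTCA, and the Cyp26a1 repeat, at bases 219 to 235, stands on the opposite strand as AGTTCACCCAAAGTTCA. This repeat occurs in 32 of 32851 windows (0.0974%), and repeats with 1, 2 or 5 bases between in 0.588%. The Stra8 window holds 2 single motifs, at bases 57 to 62 and 213 to 218, and no such repeat, and a single motif is found in 43.7% of windows. It also holds GGCGCC, not in capitals, at bases 139 to 144, so the Zglp1 and Stra8 windows each hold both kinds of motif. Absence of the repeat says only that these letters are not in this window.

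Among the other RA pathway genes no call was made. Of 14 genes of RA metabolism and binding 3 were tested, with changes from -0.39 to 0.90 and a median of 0.82. Crabp2, which delivers RA to its receptor, had a change of 0.90 ± 0.35 (limma adjusted p = 1). Of 9 receptors and corepressors 4 were tested, with a median of -0.09, and Ncor1, a corepressor, differed by 0.04 ± 0.14. Rara stayed at 3.32 to 9.91 RPM and Rarg at 3.14 to 7.25 RPM in the 10 libraries, under the filter. Of 14 listed RA targets 4 were tested, all 4 with estimates above 0 and with a median of 0.25, among them Rec8, a meiotic cohesin subunit, at 0.35 ± 0.30. None of the 28 Hox genes was tested. Of them 10 had no read in any of the 10 libraries, and their sum stayed at or under 12.9 RPM.

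Day 4 alone gave 3 calls in 8405 tested genes (0.0357%), Id1, Zglp1 and Arl4c, and day 3.5 alone gave 1 in 8419 (0.0119%), Nr6a1. The day 3.5 and day 4 libraries are separate, and no gene was called on both days. Id1 changed by -3.30 ± 0.57 at day 4 (limma adjusted p = 0.00071) and by -2.52 ± 0.57 at day 3.5 (limma adjusted p = 0.11). The day 4 call of Id1 was lost without RA replicate 1 (-2.71, limma adjusted p = 0.49) or BMP2 replicate 2 (-2.95, limma adjusted p = 0.46), and with edgeR (-3.52, adjusted p = 0.083). Zglp1 changed by -2.36 ± 0.50 at day 4 (95% interval -3.36 to -1.36; limma adjusted p = 0.033), and at day 3.5 it was under the filter. Its day 4 call was lost without BMP2 replicate 1 (-2.48, limma adjusted p = 0.2), BMP2 replicate 2 (-2.24, limma adjusted p = 1) or RA replicate 2 (-1.31, limma adjusted p = 1), and with edgeR (-2.15, adjusted p = 1). Mdk was 1.33 ± 0.38 and 1.60 ± 0.38 higher on the 2 days, with limma adjusted p of 0.9 and 0.099.

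Arl4c, a small GTPase of the ARF family, was higher with RA at day 4 and not at day 3.5. It was at 16.1 and 18.6 RPM with RA and 6.26 and 1.71 RPM with BMP2 at day 4, a change of 2.05 ± 0.45 (95% interval 1.17 to 2.93; limma adjusted p = 0.033). At day 3.5 the RA libraries, at 5.61 and 6.03 RPM, lay below the BMP2 libraries at 7.85 and 10.5 RPM and the controls at 14.9 and 10 RPM. The day 4 call was lost without RA replicate 1 (2.15, limma adjusted p = 0.49), RA replicate 2 (1.95, limma adjusted p = 1) or BMP2 replicate 2 (1.34, limma adjusted p = 1), and with edgeR (2.12, adjusted p = 1). The difference between the days was 2.61 ± 0.63 (limma adjusted p = 0.58). Arl4c (Entrez 320982) lies at chr1:88673125-88702221 on the minus strand.

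The test of that difference, RA against BMP2 at day 4 minus the same at day 3.5, called 0 of 8872 genes (0%). In limma 162 genes had an unadjusted p under 0.05, where 5% of the tests are 444, and edgeR's quasi-likelihood test on the recovered reads also called 0. The estimate for Id1 was -0.78 ± 0.81 (SE), that for Mdk 0.27 ± 0.54 and that for Nr6a1 -0.45 ± 0.30, so equal effects on the 2 days were not shown either. The counts moved with the RA libraries of day 3.5. With RA replicate 1 left out, so that replicate 2 stood alone for RA at day 3.5, calls rose to 212 at day 3.5, to 28 over both days and to 32 in the difference between days. With replicate 2 left out they were 0 at day 3.5 and 2 over both days.

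**Figure D4:**
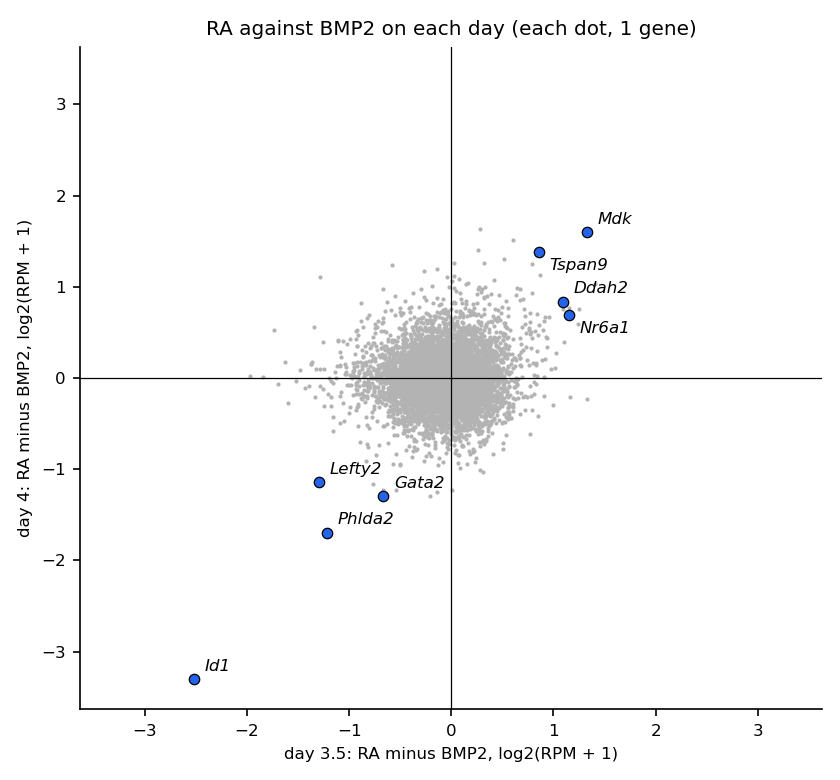
RA against BMP2 at day 3.5 (horizontal axis) and at day 4 (vertical axis), each as the log2 change of RPM + 1, for the genes tested on both days. Each point is 1 gene and marked points are genes named in the text; Id1 lies at -2.52 and -3.30 and Mdk at 1.33 and 1.60, while Nr6a1 lies at 1.15 and 0.70.

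A few other genes were not called but differed in level between the treatments, and these were chosen after their values were seen, as were Nr6a1 and Arl4c. Tspan9, a tetraspanin membrane protein, was at 58.7, 70.3, 52.6 and 51.8 RPM with RA and 37.7, 32.6, 17.2 and 21.7 RPM with BMP2, a change of 1.12 ± 0.27 (limma adjusted p = 0.098). It was called under 4 of 19 alternatives. A pseudocount of 5 gave limma adjusted p = 0.044, the replicate block within line 0.037 and the block of replicate and day 0.03. The other left out RA replicate 1 of day 3.5 (1.185), so that replicate 2, which stood apart, was alone for RA that day. Without replicate 2 of day 3.5 the change was 1.06 and was not called. Ddah2, which belongs to the dimethylarginine dimethylaminohydrolase family, was at 69.9, 85.8, 81.7 and 71.7 RPM against 38.9, 32.9, 48.9 and 36.7 RPM. Its change was 0.97 ± 0.24 (limma adjusted p = 0.14). It was called without RA replicate 1 of day 3.5 (1.04), where replicate 2 was again alone. Without replicate 2 of day 3.5 it was 0.89 and was not called. For both genes all 4 RA libraries lay above all 4 BMP2 libraries and above the controls of day 3.5. Phlda2, an imprinted gene that restrains placental growth, was at 113, 124, 39.1 and 67.8 RPM with BMP2 and 40.3, 63.4, 13.3 and 17.4 RPM with RA, a change of -1.46 ± 0.44 (limma adjusted p = 0.87). Its groups were apart within each day and overlapped across the days.

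Set against the untreated cells of day 3.5, BMP2 gave 1 call and RA gave none. Both comparisons use the same pair of control libraries, so their errors are not independent. With BMP2 1 of 8390 genes was called (0.0119%), and it was Id1, at 2.75 ± 0.57 above control (95% interval 1.62 to 3.88; limma adjusted p = 0.043), or 6.73-fold. That call did not survive leaving out any 1 of the 4 libraries, where the change was 2.69 to 2.82 with limma adjusted p from 0.35 to 1, nor edgeR (2.87, adjusted p = 0.65). With RA 0 of 8377 genes were called (0%) in limma and 0 in edgeR, and 288 had an unadjusted limma p under 0.05, where 5% of the tests are 419. Mdk was 1.39 ± 0.38 above control with RA (limma adjusted p = 0.74) and 0.06 ± 0.38 with BMP2. Nr6a1 was 0.93 ± 0.22 above control with RA (limma adjusted p = 0.32) and -0.22 ± 0.22 with BMP2. Of the BMP targets 9 were tested with BMP2, all above control in their estimates with a median of 0.51. With RA 8 were tested, 3 above and 5 below, with a median of -0.07. Id1 was among the 9 but not the 8, since its RA and control libraries of day 3.5 all lay under the filter on low levels. The medians therefore cover different genes. For genes that pass the filter through their BMP2 libraries alone, an estimate above control is favoured in advance. Leaving out RA replicate 1, so that RA replicate 2 stood alone, raised the calls of RA against control from 0 to 163.

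Libraries given BMP2 and RA together at day 3.5 stood near BMP2 for Id1 and near RA for Mdk in their levels. They held 26.1 and 54.3 RPM of Id1, 154 and 291 RPM of Mdk, 5.87 and 8.08 RPM of Zglp1 and 1.3 and 4.94 RPM of Stra8. These values were set side by side without a test.

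Apart from Zglp1, the 1 tested of 7 listed BMP-linked oogenic genes, no gene of the germline and pluripotency lists was called between RA and BMP2. Of 20 pluripotency genes 16 were tested with a median of 0.01, of 41 meiotic prophase genes 15 with a median of -0.07, of 21 germline genes silenced by promoter methylation 16 with a median of -0.07, and of 20 oocyte genes 7 with a median of 0.05. Genes of the cell cycle were equally near 0, with medians of -0.07 for 20 of 20 G2/M genes and -0.02 for 20 of 20 replication genes. Of 24 mesoderm and endoderm markers 1 was tested, Lhx1, a LIM homeobox gene. It was at 36.1, 30.9, 61 and 53.7 RPM with BMP2 and 27.5, 18.5, 23.8 and 24 RPM with RA, a change of -0.88 ± 0.48 (limma adjusted p = 1), with no overlap between the groups. Of 15 neural markers 3 were tested and none was called.

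Some germline genes were called between the days. This comparison of day 4 with day 3.5, over the 4 RA and BMP2 libraries of each day, was added after the data were seen, and any batch that goes with the day cannot be told apart from it. It called 262 of 8872 genes (2.95%), 200 higher and 62 lower at day 4. Some of the genes called higher were low in replicate 2 of day 3.5. Srsf9 was at 44 RPM with BMP2 and 34.2 RPM with RA in replicate 1, against 5.26 and 4.31 RPM in replicate 2. Smc1b, also called, was not lower in replicate 2 (36.8 and 40.9 RPM, against 28.3 and 30.6 RPM in replicate 1). Of the 16 tested germline genes silenced by methylation 5 were called higher and none lower, with a median of 0.72. Of the 15 tested meiotic genes 4 were called higher, with a median of 0.55, beside the median of -0.02 for all genes. Hormad1 and Sycp3 are on both lists. None of the 14 early germ cell genes (median 0.11) and none of the 7 tested oocyte genes (median 0.20) was called. Of the 6 tested feeder and stroma markers 1, the collagen gene Col3a1, was called lower at day 4, with a median of -0.82, and the part of such transcripts in the day differences was not tested. Leaving out RA replicate 2 of day 3.5 left 152 calls, and leaving out RA replicate 1 of day 3.5 gave 482.

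Dazl, an RNA-binding protein that licenses germ cells for later steps, had the largest change of these. It was at 110 and 68.7 RPM with BMP2 and 92.3 and 76.3 RPM with RA at day 3.5, and at 454 and 607 RPM with BMP2 and 430 and 490 RPM with RA at day 4. Its rise was 2.51 ± 0.34 (limma adjusted p = 1.8e-07), and it differed between RA and BMP2 by -0.12 ± 0.34. Hormad1, which marks unsynapsed chromosome axes, went from 13.2, 8.22, 8.67 and 7.33 RPM to 41.1, 51.2, 48.6 and 44.8 RPM, in the order BMP2 and then RA (2.22 ± 0.34, limma adjusted p = 3.5e-06). The day 3.5 and day 4 libraries did not overlap for either gene, and RA and BMP2 overlapped on each day. Sycp3, an axis protein of meiotic chromosomes, rose by 1.66 ± 0.36 (limma adjusted p = 0.00094). Smc1b, a meiotic cohesin subunit, rose by 1.47 ± 0.25 (limma adjusted p = 2.6e-05), and the helicase gene Ddx4 by 1.05 ± 0.23 (limma adjusted p = 0.00088), which fell just under the minimum change without BMP2 replicate 2 of day 4 (0.92) or RA replicate 2 of day 3.5 (0.9985). Slc25a31, a germline ADP/ATP carrier, rose by 1.27 ± 0.31 (limma adjusted p = 0.0031). The calls of Sycp3 and Slc25a31 were lost with edgeR (adjusted p = 0.063 and 0.13) and with only the H18 libraries (limma adjusted p = 0.054 and 0.12).

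**Figure D5:**
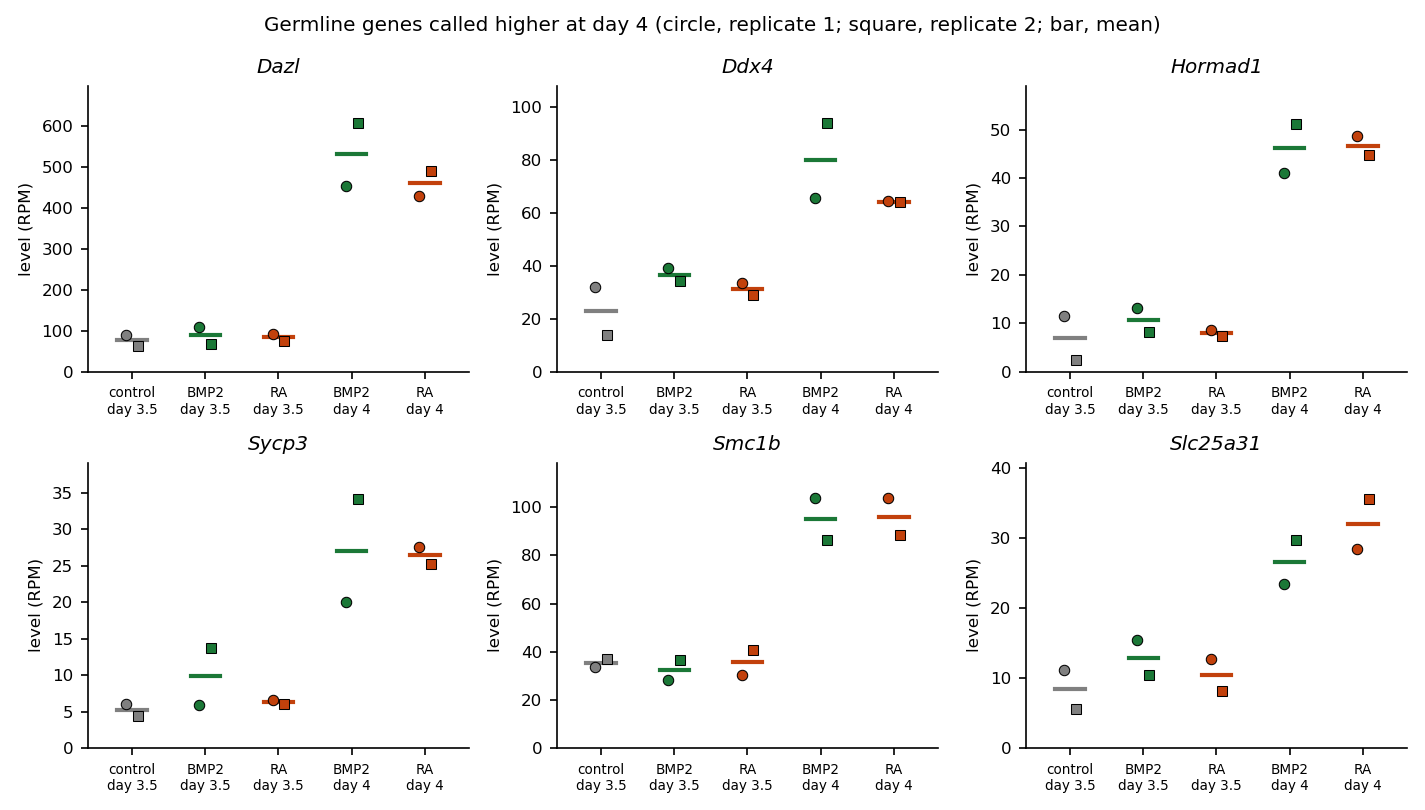
RPM of Dazl, Ddx4, Hormad1, Sycp3, Smc1b and Slc25a31 in each library, with the groups control, BMP2 and RA at day 3.5 and BMP2 and RA at day 4 along the horizontal axis. Circles are replicate 1, squares replicate 2 and bars the mean of 2 libraries; the day 4 libraries are higher in each panel, with Dazl at 430 to 607 RPM, and RA and BMP2 lie side by side.

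Glycolytic genes also differed with the day, with 6 of 16 called higher and a median of 0.78. Among all 8872 genes tested 200 were called higher, and the median was -0.02. Ldha, lactate dehydrogenase A, was at 25.1 and 12.5 RPM with BMP2 and 15.8 and 5.17 RPM with RA at day 3.5, and at 531 and 113 RPM with BMP2 and 720 and 261 RPM with RA at day 4. The rise was 4.57 ± 0.54 (limma adjusted p = 1.4e-09), and RA and BMP2 differed by -0.03 ± 0.54. The spread within day 4 was wide, and replicate 1 was the higher library in both treatments. In untreated cells Ldha was at 14.4 and 10 RPM at day 3.5 and at 212 and 297 RPM at day 4, and Dazl at 90.7 and 62.8 RPM and then at 209 and 207 RPM, so both were higher at day 4 without RA or BMP2 as well. The day 4 control libraries carry another extraction protocol text, and these values were not tested. Zglp1 and Stra8 were called in the day comparison too, at 1.07 ± 0.36 (limma adjusted p = 0.036) and 2.09 ± 0.49 (limma adjusted p = 0.0022; 0.081 with only the compared libraries), Zglp1 with its highest libraries under BMP2 and Stra8 with its highest under RA. The Zglp1 call between days was lost without any 1 of 6 of the 8 libraries, furthest without RA replicate 1 of day 4 (0.54, limma adjusted p = 0.43).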

How the data were processed

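The deposited table gives RPM per gene, computed by the authors; in columns lifted by transgene rows they are, as deposited, a signal of that scale. The tools named in the submitters' processing notes are HTSeq 0.9.1, SAMtools 1.3, Bowtie 1.1.2, TopHat2 2.1.0 and cutadapt 1.9.1, and the build is mm10; the role of each tool and the annotation are not given in the sources used here. Of 195 value columns 1 matched no sample and was not used. Whole reads were recovered from the step between values (100% whole within 0.05 of a read in the H18 columns).

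One limma 3.58.1 model (R 4.3.3; lmFit, then trended, robust eBayes) took log2(RPM + 1) of 191 PGCLC libraries, with a mean for each line, treatment and day, so all groups shared one estimate of spread. The pseudocount of 1 understates changes of low genes. RA and BMP2 were contrasted over both days with equal weight, on each day, and between days. edgeR 4.0.16 on the recovered reads of the 27 H18 libraries was an alternative. The scripts were tested on simulated data.

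Genes named are Stra8, Zglp1, list members, and called genes at 20 RPM or more whose groups did not overlap; others are said to be chosen after their values were seen. The members and lists were chosen with earlier results of these data known. Promoter windows matched 6 of 8 genes looked up. A result withheld for evaluation is not reported here.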

Additional observations from a re-analysis of the deposited data

How the results depend on the processing

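Id1 over both days was called under all 19 alternatives tried (-3.21 to -2.30), Zglp1 under 14 of 18 and Mdk under 14 of 19. Calls over both days, 3 as reported, were 5 without the low-level filter, 5 with replicate and day as a block within each line, and 1 each with only the compared libraries, only H18 libraries or edgeR. At day 3.5 the 1 call became 2 with a pseudocount of 5, without the filter or with the block of replicate and day, and 0 with only the compared libraries, only H18 or edgeR. At day 4 the 3 calls became 1 with a pseudocount of 0.5, without the filter or with only H18, 5 with the block of replicate and day, 14 with only the compared libraries and 0 with edgeR. RA against control, 0 as reported, gave 2 without the filter and 180 at day 4 against its own control. BMP2 against control, 1 as reported, gave 2 without the filter, 129 at day 4 against its own control, and 0 with a pseudocount of 0.5, TMM scaling, the replicate block within line, edgeR or only H18. The day 4 controls were tested only in these alternatives, and they also entered the shared estimate of spread. The day comparison, 262 as reported, gave 131 with a pseudocount of 5, 106 with only the compared libraries, 107 with edgeR and 99 with only H18.

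Leaving out 1 library at a time gave 2 to 28 calls over both days, 0 to 212 at day 3.5, 0 to 3 at day 4, 0 to 32 for the difference between days, 0 to 163 for RA against control, 0 to 0 for BMP2 against control and 152 to 482 between days. The sign turned for the day difference of Mdk (-0.10 without RA replicate 1 and -0.02 without BMP2 replicate 2 of day 3.5, in a range of -0.10 to 0.65) and of Zglp1 (0.21 without RA replicate 2 of day 4, in a range of -1.88 to 0.21), for Arl4c in RA against control (1.33 at day 4), for Nr6a1 in BMP2 against control (0.84 at day 4) and for Mdk in BMP2 against control (-0.28 without control replicate 1, -0.23 without BMP2 replicate 2, in a range of -0.28 to 0.40). The cause was not tested.

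With the replicate number as a block within line, calls were 4 over both days, 1 at day 3.5, 4 at day 4, 0 for the difference between days, 0 and 0 against control and 279 between days. With the block of replicate and day, Stra8 was called over both days (limma adjusted p = 0.0071) and at day 4 (limma adjusted p = 0.0013). Same-numbered libraries deviated together within day 3.5 (correlations of 0.405, 0.487 and 0.679 across 9003 genes) and less at day 4 (0.132), and not across days (-0.0562 to 0.0397). No label says that a number marks a shared batch, so the numbers pair nothing by design. With 2 libraries a group and 1 read worth up to 0.628 RPM, levels of a few RPM rest on few reads.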
